A study of Mus musculus with 3 samples.

Results

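The genes described here encode the voltage-gated sodium channel subunits, the voltage-gated calcium channel subunits, the hyperpolarisation-activated HCN channels and the sodium leak channel NALCN. Earlier results of these data were known when they were chosen. The choice went by gene symbol: every Scn gene ending in a or b, every Cacna1, Cacna2d, Cacnb and Hcn gene, and Nalcn. This gave 36 of the 33101 gene names that carried a value, and all 36 had one. Messenger RNA came from the dentate gyrus, micro-dissected on both sides from adult male wild-type mice of the C57Black6 strain, aged 8 to 10 weeks, with no transgene, deletion or treatment named in the labels. The series held 3 such libraries, called biological replicates by the submitters, in 1 group, with nothing to compare it with. The table gave 1 value per gene for the whole group, in FPKM (fragments counted per length of transcript and scaled to the number of mapped fragments), so no value below has a replicate error, no order of 2 neighbouring genes could be set against a spread, and no p-value is given. The comparisons are between genes within this tissue, on the FPKM scale, which is per length.

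Voltage-gated sodium channels carry the rising phase of the action potential. Each has a large pore-forming alpha subunit and smaller beta subunits that change its gating and its place in the membrane. Voltage-gated calcium channels turn depolarisation into calcium entry, which drives transmitter release and gene regulation. Those that open at strong depolarisation (L, P/Q, N and R types) assemble from an alpha1 pore with a cytoplasmic beta and an extracellular alpha2delta subunit, while the low-threshold T-type pores can work without them. In the plots, CaV1 stands for the L-type pore genes, CaV2 for the P/Q, N and R types and CaV3 for the T type. HCN channels open on hyperpolarisation and are tuned by cyclic AMP, and NALCN passes a steady sodium leak. The granule cells that dominate the dentate gyrus are known for a very negative resting potential and sparse firing.

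The labelled tissue was checked against markers. All 5 granule cell markers were above 20 FPKM, from Tdo2 at 23.5 to C1ql2 at 111 FPKM, and the transcription factor gene Prox1 was at 44.8 FPKM. Of 6 pan-neuronal and excitatory markers, 5 lay between 98.1 FPKM (Rbfox3) and 1205 FPKM (Camk2a), while the tubulin gene Tubb3 was at 0.158 FPKM. The reason for that low value was not tested, and low values of other genes carry the same doubt. Astrocyte, oligodendrocyte, microglial and interneuron markers were also present, with list medians of 192, 75.4, 34.1 and 10.7 FPKM, so the dissected tissue was a mixture. Astrocyte markers ran from Aqp4 at 37.9 to Aldoc at 511 FPKM, oligodendrocyte markers from Mog at 6.72 to Mbp at 261 FPKM, and microglial markers from Aif1 at 3.51 to C1qb at 38.9 FPKM. Precursor markers, from Neu4 at 0.392 to Pdgfra at 10.1 FPKM, and vascular markers, from Pecam1 listed at 0 to Vtn at 16.8 FPKM, had medians of 5.90 and 4.99 FPKM. In such bulk RNA, few cells of a type and little RNA per cell cannot be told apart, and which cells carried each channel transcript was not tested.

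Across the 36 channel genes, levels ran from 0 to over 100 FPKM. Of these genes, 24 reached 1 FPKM, or 66.7%, against 39.6% of all gene names and 56.4% of 20135 protein-coding names. At 10 FPKM or more there were 17, or 47.2%, against 21.1% of all names and 30.8% of protein-coding names. Their median was 6.30 FPKM, against 0.0869 FPKM over all names and 2.46 FPKM over protein-coding names. It was 13.6 FPKM over members at 0.1 FPKM or more. At 100 FPKM or more there were 2 genes, Scn3b among them, while 15 lay from 10 to under 100 FPKM, 7 from 1 to under 10 FPKM, 8 were above 0 and under 1 FPKM, and 4 were listed at 0. The 12 genes of auxiliary subunits, beta and alpha2delta, had a median of 21.1 FPKM with none at 0. Of these, 83.3% reached 1 FPKM and 75% reached 10 FPKM. Of the 24 pore-forming genes, 58.3% reached 1 FPKM and 33.3% reached 10 FPKM, near the 56.4% and 30.8% of protein-coding names. All 4 zeros were among the pore-forming genes, while 4862 of the 20135 protein-coding names were at 0.

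**Figure D1:**
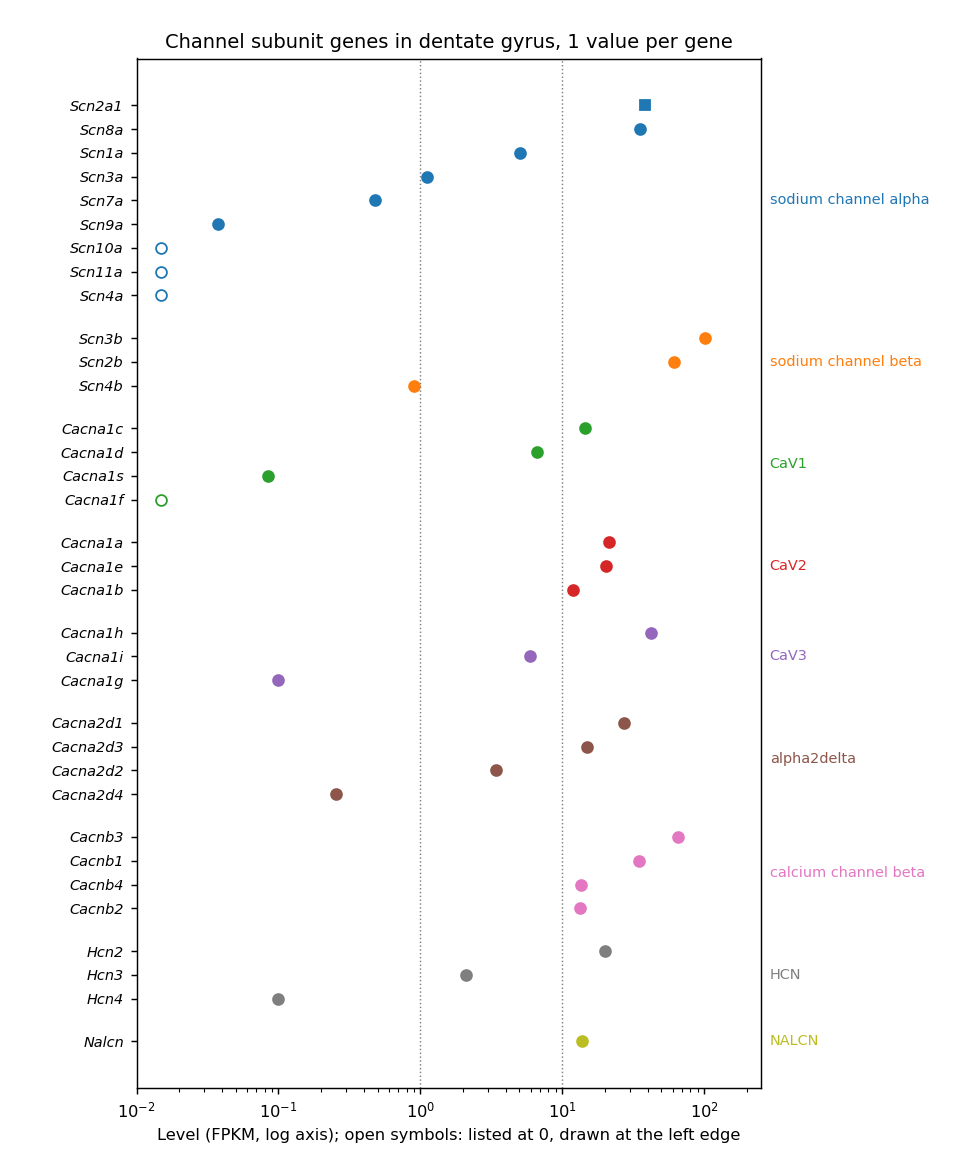
Level of channel subunit genes in FPKM on a log axis, 1 point per gene with 1 value for the whole group, Scn2a1 as a square and dotted lines at 1 and 10 FPKM. Scn3b and Scn2b, at 101 and 61.9 FPKM, are among the points farthest to the right, some genes are not shown, and the 4 open circles at the left edge are genes listed at 0.

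Among sodium channel alpha genes a single member of the chosen set was high. Scn8a, whose channel gathers at the axon initial segment and the nodes of Ranvier, stood at 35.2 FPKM, above 89.8% of protein-coding names. That value is the sum of 2 entries, at 31.4 and 3.83 FPKM. Scn1a, the alpha subunit best known from fast-spiking inhibitory neurons, followed at 5.06 FPKM, and Scn3a, known mainly from the embryonic brain, at 1.11 FPKM. Scn8a thus exceeded Scn1a by 6.96-fold and Scn3a by 31.7-fold, and Scn1a exceeded Scn3a by 4.55-fold. With a pseudocount of 1 FPKM the log2 ratios to Scn3a were smaller, 4.10 in place of 4.99 for Scn8a and 1.52 in place of 2.19 for Scn1a. With only the higher Scn8a entry, its log2 ratio to Scn1a was 2.63 in place of 2.80, and to Scn3a 4.82 in place of 4.99. Interneuron markers, which bear on where Scn1a could come from, ranged from Vip at 2.41 FPKM to Sst at 109 FPKM, with the fast-spiking cell marker Pvalb at 10.7 FPKM. Their part in the Scn1a value was not tested.

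A further alpha subunit gene of brain, Scn2a, was missed by the symbol rule because the table lists it under its older symbol Scn2a1. It encodes the channel of the proximal axon in excitatory neurons and was the highest alpha gene of all, at 38.5 FPKM. This was 1.09 times the summed Scn8a value, 7.60 times Scn1a and 34.6 times Scn3a. With Scn2a1 counted, it made up 47.7% of the summed alpha FPKM, Scn8a 43.7%, Scn1a 6.27% and Scn3a 1.38%. Without it, Scn8a alone made up 83.5%.

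The other alpha genes, known from other tissues, were low. Scn7a, an atypical sodium-sensing channel also known from glia, was at 0.478 FPKM. Scn4a, the skeletal muscle channel, was listed at 0. The peripheral sensory neuron channels Scn9a, Scn10a and Scn11a were at 0.0374 FPKM, 0 and 0. Markers of skeletal muscle, sensory ganglion and heart were read too, and any link to the channel levels was not tested. No skeletal muscle marker reached 1 FPKM, with Myh4 and Ckm listed at 0 and Actn3 highest at 0.689 FPKM. All 4 sensory ganglion markers were under 0.06 FPKM, with Trpv1 listed at 0 and Avil highest at 0.0528 FPKM. Of the heart markers, Tnnt2 was at 2.40 FPKM and the other 3 were under 0.04 FPKM, the lowest being Nppa at 0.0136 FPKM. Of the 9 alpha genes of the rule, 3 reached 1 FPKM, or 33.3%, and with Scn2a1 it was 4 of 10, or 40%. The shares were 39.6% over all gene names and 56.4% over protein-coding names.

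Some of these alpha genes are close to each other in sequence, which bears on how short reads can be divided among them. Over whole coding sequences, the 45 pairs of alpha genes shared 57.6 to 83.4% of aligned bases, with a median of 67.8%. Scn3a and Scn2a1 were the closest pair at 83.4%, followed by Scn1a and Scn2a1 at 82.7%, while Scn8a and Scn2a1 shared 73.7%. Runs of 50 or more identical bases occurred in 9 of the 45 alpha pairs. Scn8a and Scn2a1 shared at most 32 bases in a row, Scn8a and Scn1a at most 37. Scn8a and Scn3a shared a run of 55 bases and so were a pair among those 9. All 6 pairs among Scn1a, Scn2a1, Scn3a and Scn9a shared runs of 101 to 188 bases, and the division of reads among these genes is uncertain. In the other classes such runs were found in 2 of 45 pairs of calcium channel alpha1 genes. These were Cacna1g with Cacna1i at 68 bases and Cacna1h with Cacna1i at 50 bases. No pair of beta, alpha2delta or HCN genes had such a run, and the longest there was 33 bases.

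Several alpha and beta genes are neighbours on the chromosome, and neighbours differed widely in level. On chromosome 2, in the mm9 coordinates of the table, 5 alpha genes lay within 1328 kb: Scn3a from 65295175 to 65405549, Scn2a1 from 65458914 to 65605504, Scn1a from 66108838 to 66248121, Scn9a from 66318137 to 66473009 and Scn7a from 66511482 to 66622971. Scn3a and Scn2a1, transcribed from opposite strands with 53.4 kb between them, were at 1.11 and 38.5 FPKM. Scn1a and Scn9a, on the same strand with 70.0 kb between them, were at 5.06 and 0.0374 FPKM. On chromosome 9, Scn10a and Scn11a had 59.4 kb between them and were both listed at 0. The beta genes Scn2b (44925959 to 44938153) and Scn4b (44946520 to 44962235), also on chromosome 9 and on the same strand, were separated by 8.37 kb and differed 68.8-fold.

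**Figure D2:**
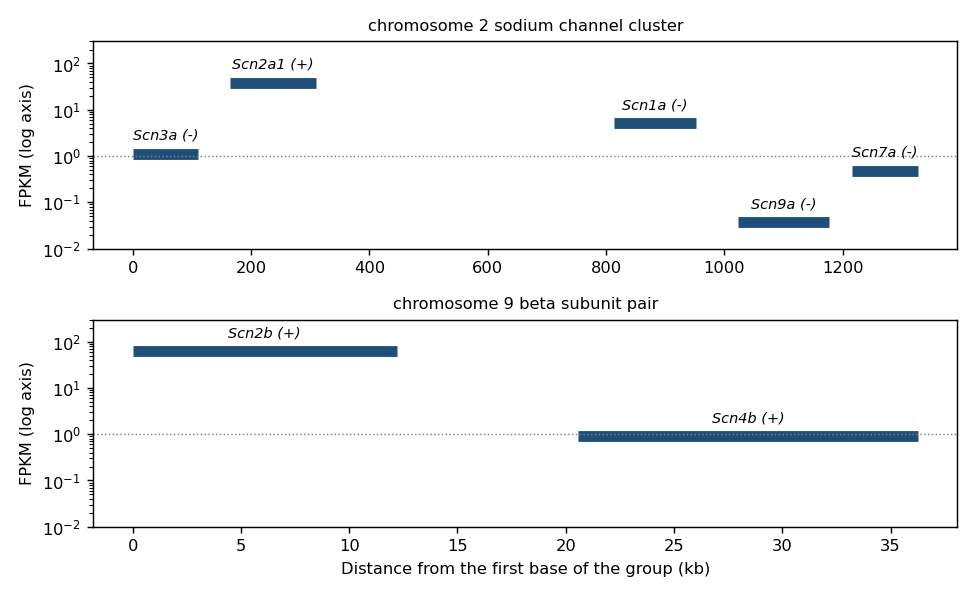
Position of neighbouring sodium channel genes as distance in kb from the first base of each group, against level in FPKM on a log axis, with the strand in brackets. Bars are gene spans; in the top panel Scn2a1 at 38.5 FPKM lies beside Scn3a at 1.11 FPKM, in the bottom panel Scn2b at 61.9 FPKM beside Scn4b at 0.900 FPKM.

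Sodium channel beta genes were the most abundant class, with a median of 81.5 FPKM. Scn3b, whose product binds the alpha subunit without a covalent bond, was at 101 FPKM, above 97.4% of protein-coding names. Scn2b, whose product is joined to the alpha subunit by a disulphide bond, was at 61.9 FPKM, and Scn3b exceeded it by 1.63-fold. Scn4b, also disulphide-linked and known for its part in resurgent sodium current, was at 0.900 FPKM and was exceeded 68.8-fold by Scn2b.

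Calcium channel pore genes were led by a T-type gene. Cacna1h was at 42.1 FPKM, the highest of the 10 alpha1 genes and 34.3% of their summed FPKM of 123. Its T-type relatives, which open near rest and support burst firing, were far below: Cacna1i at 5.92 FPKM was exceeded 7.10-fold and Cacna1g at 0.0987 FPKM was exceeded 426-fold. Cacna1i exceeded Cacna1g by 60.04-fold. Ratios to Cacna1g rest on a value close to 0, at unknown depth: with a pseudocount of 1 FPKM the log2 ratio of Cacna1g to Cacna1h was -5.29 in place of -8.74, and that to Cacna1i -2.66 in place of -5.91. In mm9 the listed Cacna1h transcript spanned 25511230 to 25570728 on chromosome 17.

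All 3 genes of the presynaptic P/Q, N and R channel family exceeded 10 FPKM, and they lay close together. Over all gene names 21.1% reached 10 FPKM, and over protein-coding names 30.8%. The P/Q-type gene Cacna1a was at 21.3 FPKM and the R-type gene Cacna1e at 20.2 FPKM, a ratio of 1.05. The N-type gene Cacna1b was at 11.9 FPKM, exceeded 1.79-fold by Cacna1a and 1.70-fold by Cacna1e. The listed transcript of Cacna1a is a retained-intron form of 1150 nt in GENCODE M21, against 7926 nt for the longest coding form. The Cacna1a value may therefore not stand for the coding transcript, and the alpha1 sums include it.

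Among the L-type genes, which couple calcium entry to signalling to the nucleus, Cacna1c was at 14.6 FPKM, 2.18 times Cacna1d at 6.68 FPKM. The skeletal muscle gene Cacna1s was at 0.0840 FPKM and the retinal gene Cacna1f was listed at 0. Among photoreceptor markers, Crx was listed at 0 and Gnat1 was at 0.0112 FPKM. The listed transcript of Cacna1f is annotated as subject to nonsense-mediated decay.

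The 4 calcium channel beta genes, whose products bind the alpha1 pore inside the cell, all exceeded 10 FPKM, with a median of 24.1 FPKM. The shares at 10 FPKM or more were 21.1% over all gene names and 30.8% over protein-coding names. Cacnb3 was highest at 65.2 FPKM, above 95.3% of protein-coding names and 51.4% of the summed beta FPKM. Cacnb1, the form best known from skeletal muscle, came next at 34.6 FPKM, exceeded by Cacnb3 1.88-fold. Cacnb4 at 13.5 FPKM and Cacnb2 at 13.4 FPKM had a ratio of 1.01, and Cacnb3 exceeded them by 4.83-fold and 4.86-fold. Summed beta FPKM was 127, which is 1.70 times the summed FPKM of the 7 high-threshold alpha1 genes. That alpha1 sum includes Cacna1a, whose value may not stand for its coding transcript.

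Alpha2delta genes encode the extracellular subunits, those of Cacna2d1 and Cacna2d2 being the targets of gabapentin. Cacna2d1 led at 27.3 FPKM, 59.5% of the class, with Cacna2d3 at 14.9 FPKM, Cacna2d2 at 3.43 FPKM and Cacna2d4, best known from retina, at 0.254 FPKM. Cacna2d1 exceeded Cacna2d3 by 1.83-fold and Cacna2d2 by 7.96-fold, and Cacna2d3 exceeded Cacna2d2 by 4.34-fold. The summed FPKM of this class, 45.8, was 0.614 times that of the 7 high-threshold alpha1 genes, with the same limit from Cacna1a.

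Among HCN genes Hcn2 stood high. It was at 20.03 FPKM, followed by Hcn3 at 2.12 FPKM, while Hcn4, the cardiac pacemaker gene, was at 0.0991 FPKM. Hcn2 encodes a channel that cyclic AMP shifts strongly. Hcn2 exceeded Hcn3 by 9.47-fold and Hcn4 by 202-fold. With a pseudocount of 1 FPKM the log2 ratio of Hcn2 to Hcn4 was 4.26 in place of 7.66.

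The windows below show how the HCN genes differ where they encode the glycine, tyrosine and glycine of the pore filter. Each gene shown held 1 in-frame match to GGNTANGGN (coding strand), given in capitals within 45 coding bases from GENCODE M21, 5′ to 3′ and ordered by level.
Hcn2: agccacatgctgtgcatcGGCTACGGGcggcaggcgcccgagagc
Hcn3: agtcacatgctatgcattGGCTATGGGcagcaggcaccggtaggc
Hcn4: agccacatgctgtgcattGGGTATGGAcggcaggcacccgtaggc

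Against the Hcn2 window, Hcn4 differed at 8 bases and Hcn3 at 10. Whole coding sequences of HCN genes shared 65.98 to 75.6% of aligned bases. Hcn2 and Hcn4 were the closest pair, although their levels differed 202-fold.

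Nalcn, the leak channel gene, was at 13.7 FPKM, above 75.1% of protein-coding names. Scn8a exceeded it by 2.57-fold. The genes of its complex were present beside it: the large cytoplasmic scaffold genes Unc80 and Unc79 were at 24.4 and 10.3 FPKM, and Fam155a, which encodes the subunit that brings the channel to the membrane, was at 26.7 FPKM.

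Partner genes from lists chosen for their known link to the channels were also read. These lists were drawn up with earlier results of these data known, so their shares are descriptions only. All 8 sodium channel partners reached 1 FPKM, against 39.6% of all gene names and 56.4% of protein-coding names, with a median of 25.0 FPKM. Fgf13, which encodes an intracellular fibroblast growth factor homologous factor that binds the channel tail, was highest at 142 FPKM, and its relatives Fgf12, Fgf14 and Fgf11 were at 18.4, 9.95 and 5.67 FPKM. Ank3, the gene of ankyrin G, which anchors sodium channels at the axon initial segment, was at 31.4 FPKM. The spectrin gene Sptbn4 (listed as Spnb4), the adhesion gene Nfasc and the ubiquitin ligase gene Nedd4l were at 36.2, 18.7 and 44.2 FPKM.

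Of 20 calcium channel partners, 12 reached 1 FPKM, or 60%, a share near the 56.4% of protein-coding names, and the median was 5.26 FPKM. The highest were Cacng8 at 93.3 FPKM and Cacng7 at 51.2 FPKM, members of the gamma family that in brain act mostly on AMPA receptors. Cacng1, the gamma subunit of the skeletal muscle channel, and the adaptor gene Stac were listed at 0. The release site genes Rims1 and Rimbp2, whose products hold calcium channels near vesicles, were at 25.0 and 23.3 FPKM. The small GTPase genes Rem1, Rem2, Rrad and Gem, which encode inhibitors of the high-threshold channels, were all under 0.3 FPKM, Rem2 being lowest at 0.0367 FPKM. Of the HCN partners, Pex5l, which encodes the trafficking subunit TRIP8b, was at 38.3 FPKM, Kctd3 at 26.2 FPKM, and Kcne2 was listed at 0.

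**Figure D3:**
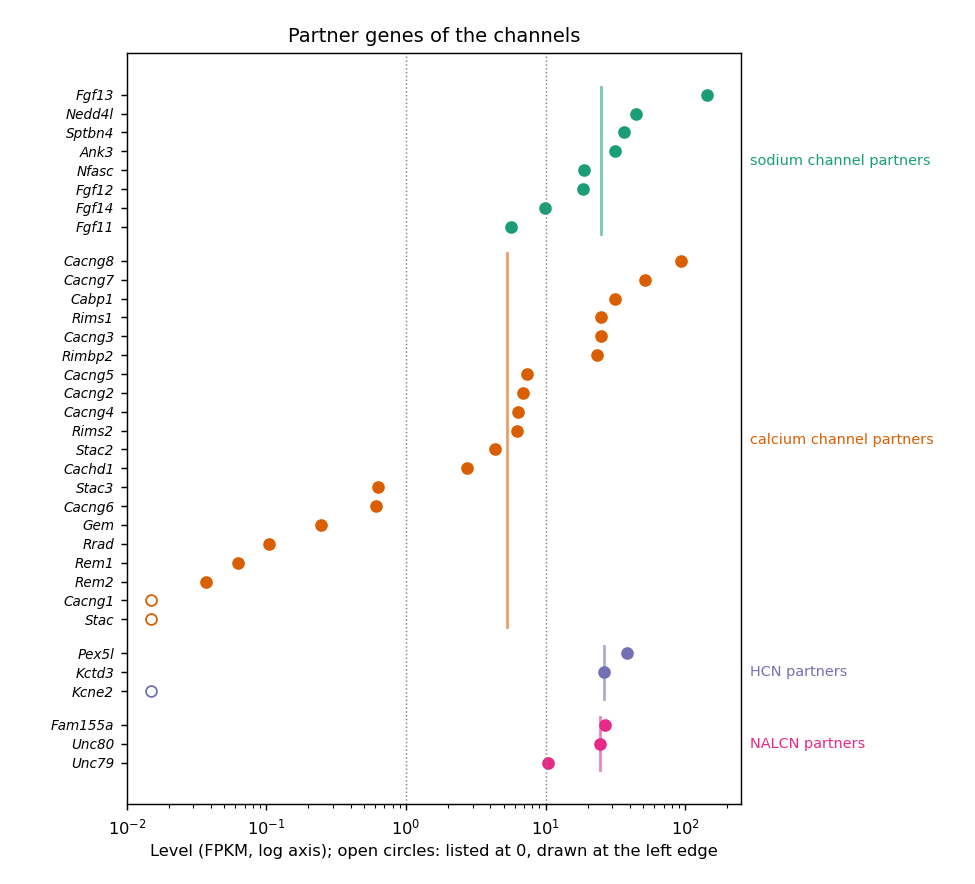
Level of each partner gene in FPKM on a log axis, with vertical bars at the list medians and dotted lines at 1 and 10 FPKM. The 8 sodium channel partners all lie right of 1 FPKM, up to Fgf13 at 142 FPKM, whereas the calcium channel partners spread from 0 (open circles) to Cacng8 at 93.3 FPKM.

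Promoter sequence was compared with level because the chosen genes fall into CG-rich and CG-poor promoters. Windows of 300 bases, 250 before and 50 after each start, from RefSeq (GRCm38.p6), were found for 26 of the 36 genes, and the richest window of each gene was taken. The motif was the dinucleotide CG, which reads the same on both strands. At 20 or more CG per window there were 15 of the 26, against 38.9% of 17491 protein-coding genes. Of 13 channel genes at 10 FPKM or more, 10 had such a window, and of 9 under 1 FPKM, 2 had one, namely Hcn4 and Scn4b. Over protein-coding names the shares were 66.3% at 10 FPKM or more and 15.1% under 1 FPKM, so CG-rich windows were more frequent at high level there too. There was no window for Cacna1a, Cacna1g, Cacna1h, Cacna2d4, Hcn3, Scn3a and Scn3b, among others.

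The exceptions at high level were Cacna1e with 11 CG, Nalcn with 3 and Scn2b with 2. Scn2a1, outside the rule, was another, with 9 CG in its richer window. Scn2a1 and Scn8a, the top alpha genes, are shown because their levels differed by 1.09-fold while their richer windows differed in composition. Each has 2 windows, and the contrast depends on the start taken: the poorer Scn8a window held 12 CG in place of 38, near the 9 of the richer Scn2a1 window, and the poorer Scn2a1 window held 3. The 250 bases before the start are given for the richer window of each, plus strand, GRCm38.p6, 5′ to 3′, with CG in capitals: 9 CG and 53.2% G and C for Scn2a1, 30 CG and 68.0% G and C for Scn8a.
Scn2a1, chr2:65668436-65668685: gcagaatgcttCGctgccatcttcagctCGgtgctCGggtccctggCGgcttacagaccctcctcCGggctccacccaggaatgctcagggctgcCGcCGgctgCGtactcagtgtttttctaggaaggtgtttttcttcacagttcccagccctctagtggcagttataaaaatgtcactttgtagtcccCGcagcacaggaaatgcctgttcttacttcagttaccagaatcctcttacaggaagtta
Scn8a, chr15:100870395-100870644: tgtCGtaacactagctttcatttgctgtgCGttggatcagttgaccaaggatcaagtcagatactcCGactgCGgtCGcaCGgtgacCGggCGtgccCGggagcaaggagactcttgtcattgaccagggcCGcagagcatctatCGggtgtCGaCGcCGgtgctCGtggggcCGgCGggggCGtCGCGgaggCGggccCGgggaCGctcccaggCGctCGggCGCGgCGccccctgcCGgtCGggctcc

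**Figure D4:**
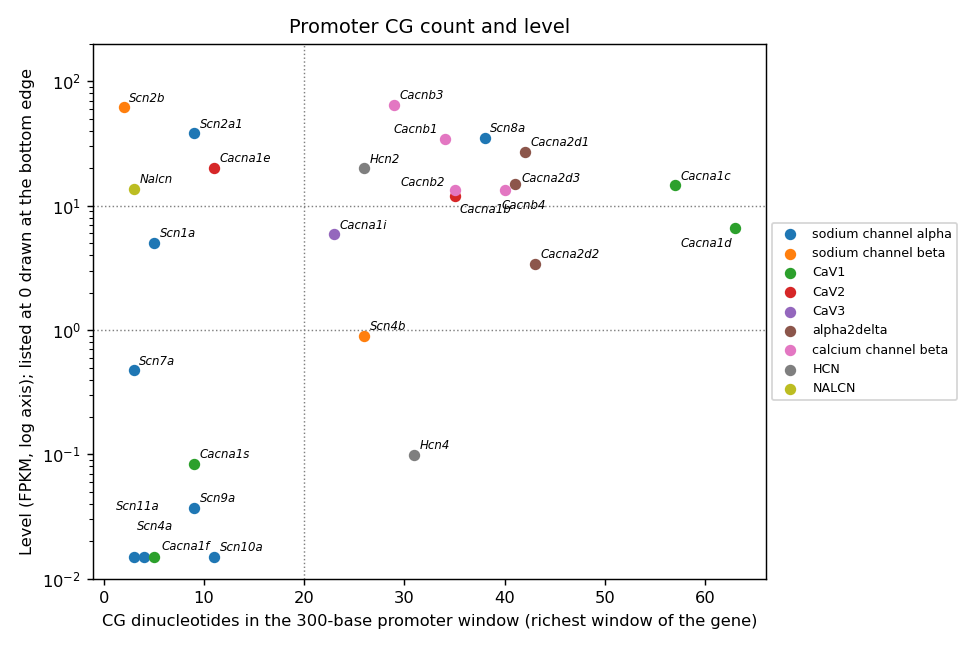
Number of CG dinucleotides in the richest 300-base promoter window of each gene against its level in FPKM on a log axis, for 26 genes of the rule and Scn2a1, with dotted lines at 20 CG and at 1 and 10 FPKM. Genes at 10 FPKM or more lie mostly right of 20 CG, with Scn2b, Nalcn, Scn2a1 and Cacna1e to the left.

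Gene span reached 817 kb (Cacna2d3) and had no steady relation to level. Across all 36 genes, which share 1 table, the Spearman coefficient of span with level on the log2(FPKM + 0.1) scale was -0.0551 and Pearson's r was -0.0126. Over the 32 genes above 0 they were -0.154 and -0.129, and over the 24 pore-forming genes 0.309 and 0.323. These are descriptions across genes, which are not independent replicates.

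Some values carry limits of the annotation. Of the 36 genes, 32 had a listed transcript that GENCODE M21 annotates as coding; Cacna1a and Cacna1f had other forms, and the listed transcripts of Scn8a and Scn9a were not found there. Scn8a had 2 entries, at 31.4 and 3.83 FPKM, under different Ensembl genes, and their sum is used. Another entry on the opposite strand overlapped 15 of the genes, for 3 of them at 1 FPKM or more. These were Cacna2d4, which overlaps Lrtm2 at 34.0 FPKM, Cacnb4, which overlaps Gm13540 at 14.1 FPKM, and Cacnb2, which overlaps Gm13268 at 11.2 FPKM, Gm13316 at 2.82 FPKM and Gm10849 at 1.31 FPKM. These overlaps are of whole gene spans, introns included, and whether exons overlap was not checked. The protocol marks no strand, so reads from any exon bases shared by both entries cannot be told apart.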

How the data were processed

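Poly(A) RNA of dissected dentate gyrus was sequenced from 3 wild-type libraries, per the labels' protocols. Per the submitters' processing notes, the reads went through TopHat and Cufflinks on mm9 and NCBIM37; versions and pooling or averaging of libraries are not stated in those notes. The deposited table holds FPKM values, 1 column for the group, in 36469 of 37681 rows; depth is unknown, so no interval or detection limit is given. Rows with a shared symbol were summed, and starts were converted to 1-based positions. Whether a value is that of the whole gene or of its listed transcript is unknown, and Cufflinks can write 0 where an estimate fails.

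The members and lists were chosen with earlier results of these data known. Every gene of the rule was to be named, but some genes and sequences are not reported here; of each partner list, the 2 highest, the lowest and those listed at 0 were to be named, and of each marker list the highest and lowest. Further genes, and 11 ratios beside the 25 fixed ones, were named after their values were seen. All partner names were found, Sptbn4 by identifier. Gene types and coding sequences came from GENCODE M21 by identifier, the longest coding form per gene; identity is over aligned bases of global alignments (match 2, mismatch -1, gap opening -8, extension -0.5), tested on simulated data. Promoters were matched by symbol, Scn2a1 as Scn2a. Alternatives changed the pseudocount (0.1 and 1 FPKM), the 0.1 FPKM filter, the summary, the shared rows, the threshold (0.5 and 2 FPKM) and the background. With no replicate spread, a median was taken as moved beyond 1.5 times. Python 3.11.15, pandas 2.3.3, numpy 2.4.6, scipy 1.17.1, biopython 1.88 and matplotlib 3.10.9 were used.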

Additional observations from a re-analysis of the deposited data

How the results depend on the processing

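Leaving out each library was not run, since the table holds 1 value per gene. No paired analysis was possible because there is 1 group. Medians of small families moved most where they hold genes near 0. With only members at 0.1 FPKM or more, the median was 13.6 FPKM over all genes, 1.11 for sodium channel alpha, 10.6 for the L-type and 24.0 for the T-type family. As geometric means with a pseudocount of 0.1 FPKM, the values were 3.50 over all genes, 0.470 for sodium channel alpha, 28.4 for sodium channel beta, 1.06 for the L-type family, 3.60 for the T-type family and 4.66 for alpha2delta. Chosen after the data were seen, leaving out members listed at 0 gave 12.6 over all genes, 0.795 for sodium channel alpha and 6.68 for the L-type family, and keeping only members with a coding listed transcript gave 6.68 for the L-type family. The other 38 of 52 medians stayed within 1.5 times.

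Of 25 log2 ratios, none changed sign. With a pseudocount of 0.1 FPKM 4 moved beyond 1.5 times, and with 1 FPKM 7 did; the log2 ratio of Cacna1g to Cacna1h was -8.74, then -7.73 and -5.29, and that of Hcn2 to Hcn4 was 7.66, then 6.66 and 4.26. Keeping the highest row in place of the sum moved none of them.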

Other observations

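Related channel genes outside the rule were mostly low. Of 14 such genes fixed as a list, Scn2a1 included, 3 reached 1 FPKM, or 21.4%. The shares were 39.6% over all gene names and 56.4% over protein-coding names. Listed at 0 were 6 of the 14, beside 13381 of the 33101 gene names and 4862 of the 20135 protein-coding names. The endolysosomal channel gene Tpcn1 followed Scn2a1 at 8.23 FPKM, above its relative Tpcn2 at 0.528 FPKM. The sperm channel genes Catsper1, Catsper3 and Catsper4 were listed at 0, and Catsper2 was at 1.27 FPKM. The cyclic nucleotide-gated genes Cnga1, Cnga2 and Cngb3 were listed at 0, and Cnga4, Cngb1 and Cnga3 were at 0.291, 0.126 and 0.0500 FPKM. The proton channel gene Hvcn1, known from immune cells, was at 0.0635 FPKM. Scnn1a, which encodes the alpha subunit of the epithelial sodium channel and was chosen once its level was known, was at 5.43 FPKM, while its partners Scnn1b and Scnn1g were at 0.0106 and 0.0822 FPKM.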
